A study of Mus musculus with 36 samples.

Results

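The genes described here are 10 markers of microglia in their resting, or homeostatic, state: P2ry12, P2ry13, Gpr34, Cx3cr1, Csf1r, Tmem119, Siglech, Selplg, Sall1 and Olfml3. They were taken by gene name from the count tables, and they are 10 of the 18322 genes that passed the filter on low counts over the whole series. All 10 were measured in all 36 libraries and tested at every age, with 50 to 2585 reads per gene and library.

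The study compared Tpp1-/- mice, a model of the childhood lysosomal storage disease CLN2, with unaffected siblings. In these mice gene targeting has disrupted Tpp1, the gene of a lysosomal protease that removes tripeptides from proteins, in all cells. Total RNA of the forebrain/midbrain (F/M) and of the cerebellum (Cb) at 1, 2 and 3 months was made into stranded mRNA libraries, 3 per group. The 12 groups are the 2 genotypes in 2 regions at 3 ages, and all controls are labelled wild type except control replicate 3 at 1 month, which is labelled Tpp1+/- in both regions.

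Microglia are the resident macrophages of the brain, and in the healthy brain they survey the tissue with fine processes. In that state they express purinergic receptors, the fractalkine receptor and a set of surface proteins that few other brain cells make. In many models of neurodegeneration, microglia that take up an activated state lose part of this program while they gain genes of phagocytosis and lipid handling. A tissue with more microglia, in contrast, holds more of every transcript these cells make. The question was therefore whether the homeostatic genes fell where activation markers rose, or rose together with genes that all myeloid cells share.

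Library totals ran from 10609896 to 29942380 reads assigned to genes, with a median of 21049839. Tpp1 was present at 42.1 to 111 CPM, the counts of a gene scaled to an equal library size, in the control libraries and at 16.1 to 27.8 CPM in the Tpp1-/- libraries, in which reads from the disrupted gene are still counted. The summed CPM of 6 cerebellar markers was 4070 to 5400 in Cb and 62.0 to 96.6 in F/M libraries, and that of 5 forebrain markers was 346 to 491 in F/M and 7.75 to 20.7 in Cb. The sex label went against the counts in 12 of the 36 libraries, 4 at 1 month and 8 at 3 months. Every library of 1 month had 4584 to 9273 reads of Y-linked genes and at most 8 of Xist, and every library of 3 months had 12199 to 36339 reads of Xist and at most 1 of the Y-linked genes. Every library of 2 months had 2043 to 7635 reads of Y-linked genes and at most 162 of Xist. In comparisons with 3 months, age therefore cannot be told apart from sex as read from the counts, and in no comparison of ages can it be told apart from the processing, which differed between them. Within an age all libraries read as 1 sex, and genotypes were compared within an age.

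The promoters of P2ry12 and P2ry13 are shown because these neighbouring genes varied together from library to library, that of Siglech because it varied with them, and that of Cx3cr1 because it was among the genes that differed most between genotypes. P2ry12 lies at chr3:59216272-59262871 and P2ry13 at chr3:59207892-59210882, both on the minus strand. Siglech is at chr7:55768178-55778925 on the plus strand and Cx3cr1 at chr9:119901616-120069879 on the minus strand (GRCm38, GENCODE annotation of the count files). Each sequence is RefSeq's, build GRCm38.p6, from 250 bases before to 50 bases after the annotated start of the transcript, on the strand of the gene, and the RefSeq start can differ from the GENCODE one. The windows are chr3:59262936-59263235 for P2ry12, chr3:59210833-59211132 for P2ry13, chr7:55767934-55768233 for Siglech and chr9:120068247-120068546 for Cx3cr1. Capitals mark GAGGAA, the core of the motif bound by the myeloid factor PU.1, or its reverse complement.
P2ry12: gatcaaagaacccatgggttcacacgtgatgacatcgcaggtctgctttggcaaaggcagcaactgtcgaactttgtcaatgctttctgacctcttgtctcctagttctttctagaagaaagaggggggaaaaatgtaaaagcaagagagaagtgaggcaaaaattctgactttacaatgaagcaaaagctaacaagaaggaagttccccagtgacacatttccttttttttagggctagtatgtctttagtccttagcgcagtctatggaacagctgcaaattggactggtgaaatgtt
P2ry13: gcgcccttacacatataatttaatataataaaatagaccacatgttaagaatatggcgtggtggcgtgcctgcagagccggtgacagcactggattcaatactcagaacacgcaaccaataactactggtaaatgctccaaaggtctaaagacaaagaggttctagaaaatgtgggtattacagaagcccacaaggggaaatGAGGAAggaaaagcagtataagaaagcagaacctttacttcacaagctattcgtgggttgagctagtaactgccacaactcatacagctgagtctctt
Siglech: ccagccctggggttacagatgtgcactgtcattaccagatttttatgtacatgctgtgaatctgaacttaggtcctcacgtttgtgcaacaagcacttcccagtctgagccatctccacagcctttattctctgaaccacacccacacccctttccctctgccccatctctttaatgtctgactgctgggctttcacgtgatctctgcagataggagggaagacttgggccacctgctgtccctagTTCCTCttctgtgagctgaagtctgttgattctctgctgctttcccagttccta
Cx3cr1: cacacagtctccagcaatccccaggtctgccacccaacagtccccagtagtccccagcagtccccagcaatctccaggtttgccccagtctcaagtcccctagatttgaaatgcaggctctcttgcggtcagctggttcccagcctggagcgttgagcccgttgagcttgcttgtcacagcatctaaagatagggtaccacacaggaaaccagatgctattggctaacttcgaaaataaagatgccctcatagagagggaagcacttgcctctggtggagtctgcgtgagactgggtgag
Of the 10 genes, 6 matched an entry of the RefSeq table with 8 promoters between them. The motif occurred in 2 of these 8, starting at position -48 relative to the start in P2ry13 and at position -4, on the opposite strand, in Siglech. On either strand it was held by 28.3% of all 32851 promoters with an entry, a share for which no chromosome was left out. The match is a description of the letters in this window and says nothing of binding.

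In control brains all 10 genes were lower in Cb than in F/M at every age. On the log2 scale the difference ran from -1.04 for Olfml3 to -1.85 for P2ry12 at 1 month, from -1.15 for Sall1 to -1.74 for Siglech at 2 months and from -0.87 for Olfml3 to -1.96 for P2ry12 at 3 months. All 10 were called lower at each age, that is, they had an adjusted p under 0.1 (edgeR's quasi-likelihood test with Benjamini-Hochberg adjustment over all genes tested) and a fold change of at least 1.5. Among all genes tested, the share called lower in Cb was 21.1% for the youngest mice, 21.9% at 2 months and 19.9% for the oldest. The medians of the 10 genes were -1.57, -1.54 and -1.63. The 12 core myeloid genes, a list of genes shared by microglia and other myeloid cells such as Aif1, Itgam, Ptprc and Spi1, had medians of -1.39, -1.38 and -1.36 in the same comparisons, with 12 of 12 called lower each time. In bulk RNA, fewer cells of a type and less RNA per cell cannot be told apart.

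Per length of transcript, Csf1r and P2ry12 had the highest levels of the 10 genes in controls and Olfml3 one of the lowest. In F/M at 3 months the mean RPKM, which is CPM divided by exon length, were 20.04 for Csf1r, 18.2 for P2ry12, 11.6 for Cx3cr1, 9.13 for Tmem119 and 8.15 for Gpr34. Selplg, Siglech, P2ry13 and Sall1 followed at 5.25, 5.21, 4.78 and 4.57, and Olfml3 was last at 2.70. The ranges of neighbours overlapped between Tmem119 and Gpr34 and along the run from Selplg to Sall1, so the order within these is not set by 3 libraries. At 1 month P2ry12 stood above Csf1r in F/M, at 18.8 and 15.6 RPKM, while the annotation then used gave Csf1r exons of 5774 bases in place of 4885.

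**Figure D1:**
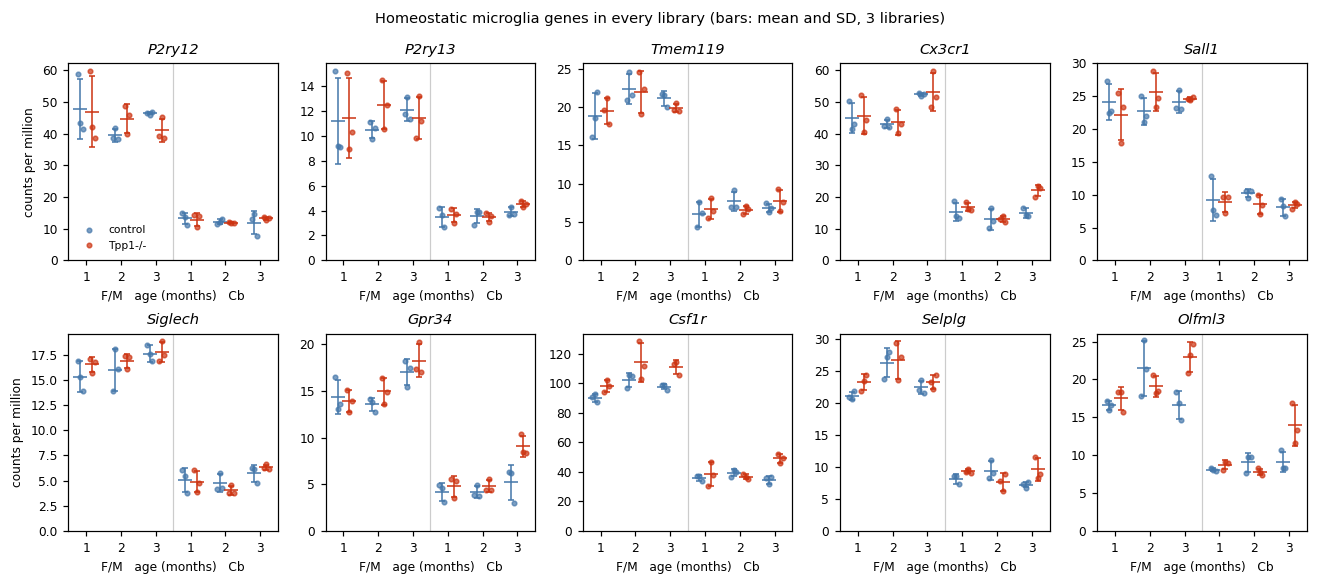
CPM (y axis) of each homeostatic gene in all 36 libraries, by age within F/M (left of the grey line) and Cb (right). Points are libraries, bars the mean and SD of 3 libraries, blue control and red Tpp1-/-. The Cb means are below the F/M means of the same age and genotype in every panel, though 1 Cb Tpp1-/- library of Olfml3 at 3 months, at 16.9 CPM, lies above an F/M control at 14.6 CPM, and the Tpp1-/- libraries of Cb at 3 months lie above all 3 controls for Cx3cr1, Csf1r, Gpr34, Selplg, Olfml3 and P2ry13, as they do for 4.46% of all genes tested.

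None of the 10 homeostatic genes was called lower or higher in Tpp1-/- mice at any age in either region. At 1 month 0 of 10 were called in F/M and in Cb, where 0.0112% of all genes were called in each, and no unadjusted p of the 10 was under 0.05 in edgeR's test, where 1.89% of all genes had one in F/M, and 7.66% of all genes in Cb. At 2 months 0 of 10 were called in F/M, where 0.737% of genes were called, and 0 of 10 in Cb, where 2.05% were called. At 3 months 0 of 10 were called in F/M, beside 0.464% of all genes, and 0 of 10 in Cb, beside 0.859%. For the 2-month mice, 2 genes in F/M and 1 gene in Cb had an unadjusted p under 0.05, beside 16.9% and 9.67% of all genes. For the 3-month mice these were 1 gene in F/M, beside 5.94%, and 5 genes in Cb, beside 6.49%. DESeq2 called 0 of the 10 in these comparisons except in Cb at 3 months, where it called 2, and limma-voom called 0 in all of them. These p-values measure only the spread between libraries within groups, estimated over all 12 libraries of an age, 3 per group. That spread may be in part technical.

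In Cb at 3 months all 10 genes had a positive log2 fold change, with a median of 0.32 beside -0.003 for all genes tested. The values ran from 0.06 for Sall1 to 0.81 for Gpr34. All 3 Tpp1-/- libraries lay above all 3 controls for 6 of the 10, beside 4.46% of all genes. In F/M at that age the median was 0.03 and 7 of 10 were positive, and the Tpp1-/- libraries lay above the controls for 2 of 10, Csf1r and Olfml3, beside 11.8% of all genes. The sign of P2ry12 and of Sall1 in Cb rested on 1 library: without control replicate 3 they were at -0.07 and -0.06. The genes are taken here by what their products do.

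Csf1r encodes the receptor for CSF1 and IL-34, on which microglia depend for survival. In Cb at 3 months it stood at 35.9, 31.7 and 36.8 CPM in the control libraries and at 52.2, 46.4 and 49.3 CPM in the Tpp1-/- libraries. The means were 34.8 ± 2.70 and 49.3 ± 2.89 CPM (SD, n = 3). The groups did not overlap, and the lowest Tpp1-/- library was above the highest control. The log2 fold change was 0.50 ± 0.09 (SE) with an adjusted p of 0.0138, which is a fold of 1.42 and below the minimum of 1.5. In F/M at 3 months the controls had 99.1, 98.9 and 95.6 CPM and the Tpp1-/- libraries 113, 114 and 106 CPM. These groups did not overlap either, yet the log2 fold change of 0.18 ± 0.09 had an adjusted p of 0.837.

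Cx3cr1 encodes the receptor for fractalkine, the neuronal chemokine Cx3cl1. Its level in Cb at 3 months was 16.6, 14.3 and 13.9 CPM in controls and 19.98, 23.4 and 22.7 CPM in Tpp1-/- libraries. All 3 Tpp1-/- libraries were above all 3 controls, with a log2 fold change of 0.56 ± 0.11, a fold of 1.48 and an adjusted p of 0.0259. In F/M the controls had 52.8, 51.9 and 52.4 CPM, and the Tpp1-/- libraries had 48.3, 59.7 and 51.4 CPM on both sides of them. The log2 fold change there was 0.02 ± 0.10. Csf1r and Cx3cr1 were thus the 2 of 10 genes under the adjusted p of 0.1 without the fold minimum, beside 0.714% of all genes called higher by that rule. When 1 Cb library was left out in turn, the adjusted p of Csf1r stayed between 0.00892 and 0.0831. That of Cx3cr1 passed 0.1 without Tpp1-/- replicate 2 (0.102), Tpp1-/- replicate 3 (0.115) or control replicate 2 (0.147). It was past both thresholds without Tpp1-/- replicate 1, at 0.63 with an adjusted p of 0.00793, and without control replicate 1, at 0.65 with an adjusted p of 0.0396 (edgeR's test). With the 6 Cb libraries fitted alone the adjusted p was 0.395 for Csf1r and 0.402 for Cx3cr1.

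Gpr34 is a receptor for lysophosphatidylserine. It had the highest fold change of the 10 in Cb at 3 months, with 6.36, 6.24 and 3.01 CPM in controls and 10.4, 8.46 and 8.40 CPM in Tpp1-/- libraries. The groups did not overlap, and control replicate 3 was below every other library. The log2 fold change was 0.81 ± 0.21, with an adjusted p of 0.182 in edgeR's test. Without control replicate 3 it was 0.53 with an adjusted p of 0.135. In F/M at 3 months the ranges overlapped, from 15.5 to 18.2 CPM in controls and from 17.1 to 20.3 CPM in Tpp1-/- libraries.

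Olfml3, which encodes a secreted olfactomedin-like protein, was the only one of the 10 with an unadjusted p under 0.05 in both regions at 3 months. In Cb the controls had 10.6, 8.35 and 8.34 CPM and the Tpp1-/- libraries 16.9, 11.6 and 13.3 CPM. In F/M they had 18.4, 16.9 and 14.6 CPM and 20.8, 23.2 and 24.7 CPM. Neither pair of groups overlapped. The log2 fold changes were 0.62 ± 0.16 in Cb, with an adjusted p of 0.134, and 0.46 ± 0.15 in F/M, with an adjusted p of 0.451. With 1 Cb library left out, the Cb value ranged from 0.45 without Tpp1-/- replicate 1 (adjusted p of 0.135) to 0.75 without control replicate 1 (0.109), and it was past both thresholds in 1 of the 6 fits, at 0.74 without Tpp1-/- replicate 2 (0.0617 in edgeR's test). It was below the fold minimum in 3 of them. At 2 months both had been negative, at -0.22 ± 0.13 in Cb and -0.16 ± 0.12 in F/M.

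Selplg encodes PSGL-1, the ligand of selectins on leukocytes. In Cb at 3 months it had 7.38, 6.74 and 7.61 CPM in controls and 11.6, 8.25 and 8.97 CPM in Tpp1-/- libraries, which did not overlap. The log2 fold change of 0.41 ± 0.13 had an adjusted p of 0.372, and without Tpp1-/- replicate 1, the highest library, it was 0.25. In F/M its log2 fold change was 0.05 ± 0.12, with controls at 21.6 to 23.6 CPM and Tpp1-/- libraries at 22.1 to 24.3 CPM.

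The other 5 genes had unadjusted p-values above 0.05 in Cb at 3 months. P2ry12, the ADP receptor that directs microglial processes to sites of injury, had 13.2, 14.8 and 7.79 CPM in controls and 13.6, 12.8 and 13.4 CPM in Tpp1-/- libraries. The Tpp1-/- libraries lay inside the control range, and control replicate 3 was again the lowest library. The log2 fold change was 0.16 ± 0.17, and -0.07 without that library. P2ry13, another ADP receptor encoded beside it, had 3.67, 4.31 and 3.69 CPM in controls and 4.79, 4.32 and 4.51 CPM in Tpp1-/- libraries, with a log2 fold change of 0.22 ± 0.15. Its highest control and its lowest Tpp1-/- library were almost equal, and its adjusted p was 0.914.

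Tmem119, a transmembrane protein used to tell microglia from other macrophages, had 7.42, 6.33 and 6.79 CPM in Cb controls and 9.29, 6.48 and 7.56 CPM in Tpp1-/- libraries at 3 months, which overlapped. Siglech, a sialic acid-binding lectin that plasmacytoid dendritic cells also carry, had 6.22, 6.19 and 4.74 CPM against 6.22, 6.60 and 6.10 CPM. Sall1, the transcription factor that maintains microglial identity, had 9.33, 8.26 and 6.70 CPM against 7.90, 8.85 and 8.59 CPM. These 3 genes had log2 fold changes of 0.19 ± 0.13, 0.14 ± 0.13 and 0.06 ± 0.12, and the ranges overlapped for each. With 1 Cb library left out, Tmem119 ranged from 0.04 without Tpp1-/- replicate 1 to 0.30 without Tpp1-/- replicate 2, Siglech was at 0.03 without control replicate 3, and Sall1 was at 0.18 without control replicate 1. Their adjusted p-values of 0.935, 0.955 and 0.985 do not show that the levels were equal.

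In F/M at 3 months P2ry12 was the one gene of the 10 whose Tpp1-/- libraries all lay below the controls, a pattern held by 12.3% of all genes there. The controls had 46.5, 46.0 and 46.9 CPM and the Tpp1-/- libraries 39.2, 45.2 and 38.6 CPM. The log2 fold change of -0.18 ± 0.16 had an unadjusted p of 0.278 in edgeR's test and an adjusted p of 1, so the test did not separate the groups. Tmem119 and P2ry13 were also negative there, at -0.09 ± 0.12 and -0.08 ± 0.13, and Sall1 and Siglech were at 0.03 ± 0.11 and 0.01 ± 0.12. Sall1 had 24.5, 24.4 and 24.9 CPM in the Tpp1-/- libraries and 23.2, 26.0 and 23.0 CPM in the controls.

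**Figure D2:**
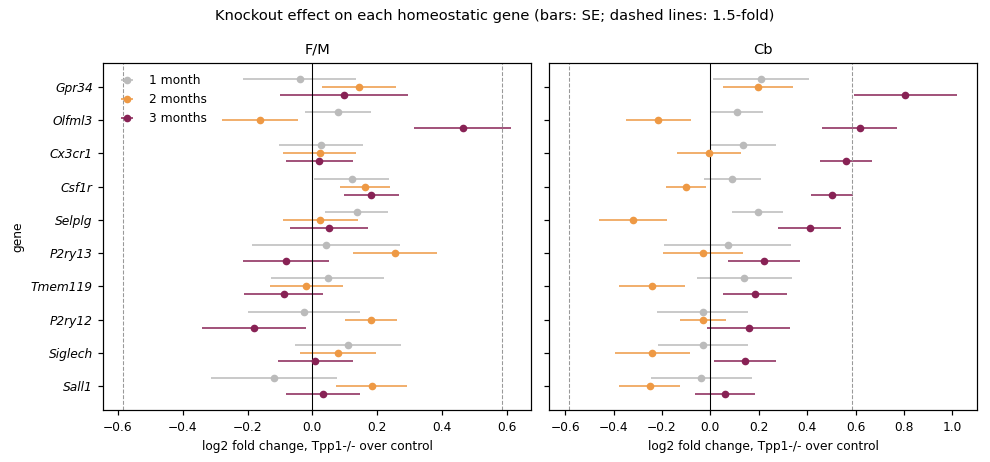
Log2 fold change of Tpp1-/- over control (x axis) for each homeostatic gene in F/M and Cb at 1, 2 and 3 months, with SE bars, and dashed lines at a fold of 1.5. In Cb at 3 months the points form a gradient from 0.06 for Sall1 to 0.81 for Gpr34, while at 2 months 9 of 10 lie below 0.

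In Cb at 2 months 9 of 10 genes were negative, with a median of -0.16, and in F/M at that age 8 of 10 were positive, with a median of 0.11. In Cb Selplg had 8.28, 11.03 and 8.99 CPM in controls and 7.86, 6.22 and 8.87 CPM in Tpp1-/- libraries, a log2 fold change of -0.32 ± 0.14 with an unadjusted p of 0.0343 and an adjusted p of 0.442 in edgeR's test. In F/M P2ry12 had 38.5, 41.8 and 38.1 CPM against 48.6, 39.8 and 45.9 CPM, at 0.18 ± 0.08 with an adjusted p of 0.260. The groups overlapped for both genes. Choroid plexus markers, 12 genes such as Ttr and Kl, differed between genotypes in the same libraries, with summed levels of 1000 to 1300 CPM in Cb controls and 1640 to 1820 CPM in Cb Tpp1-/- libraries. In F/M they summed to 251 to 642 CPM and 552 to 745 CPM, and 7 of the 12 were called higher in Cb, beside 0.25% of all genes, and 8 in F/M, beside 0.65%. Markers of midbrain and thalamus, 12 genes, had a median of -0.45 in Cb at that age with 4 called lower, beside 1.8% of all genes, and in F/M they summed to 352 to 430 CPM in controls and 436 to 509 CPM in Tpp1-/- libraries. The 5 forebrain markers summed to 469 to 491 CPM in F/M controls and 346 to 417 CPM in F/M Tpp1-/- libraries. Of 11 markers of blood leukocytes 4 were tested, and 3 were called lower in Cb, beside 1.8% of all genes, with a median of -1.50. The list of 11 summed to 7.19 to 11.2 CPM in Cb controls and 2.26 to 5.0 CPM in Cb Tpp1-/- libraries. In F/M the 4 had a median of -0.60 and 0 were called, beside 0.737% of all genes. The part of these lists in the values of the homeostatic genes was not tested. At 1 month the medians were 0.04 in F/M and 0.10 in Cb, and the log2 fold changes ran from -0.12 to 0.21.

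The difference between the regions was tested in the same fits, as the effect in Cb minus the effect in F/M with no fold minimum. It was called for 0 of 10 genes at 1 month (0.0% of all genes), for 0 of 10 at 2 months (2.97%) and for 0 of 10 at 3 months (0.00581%). At 3 months all 10 differences were positive. The lowest unadjusted p went to Cx3cr1, whose effect was 0.54 ± 0.15 higher in Cb (unadjusted p of 0.00292, adjusted p of 0.928 in edgeR's test). Csf1r followed at 0.32 ± 0.12 and Gpr34 at 0.71 ± 0.29. At 2 months the difference was -0.43 ± 0.17 for Sall1 and -0.26 ± 0.11 for Csf1r, with adjusted p-values of 0.281 and 0.359.

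The effect in Cb was compared between 2 and 3 months in a fit of all 36 libraries. It was higher at 3 months in value for 10 of 10 genes, with a median difference of 0.49 beside 0.008 for all genes. The difference was called for 3 of the 10, beside 1.3% of all genes called higher, with no fold minimum. It was 0.60 ± 0.14 on the log2 scale for Csf1r, 0.83 ± 0.19 for Olfml3 and 0.73 ± 0.18 for Selplg. Their adjusted p-values were 0.0152, 0.0160 and 0.0294. Each of these differences joined a negative value at 2 months to a positive value at 3 months. At 2 months the markers of neighbouring tissue and of blood leukocytes named above differed too. Cx3cr1 and Gpr34 were at 0.56 ± 0.19 and 0.61 ± 0.28, with adjusted p-values of 0.286 and 0.728. In F/M 0 of 10 were called for a difference between 2 and 3 months, beside 0.393% of all genes, and Olfml3 had the largest difference at 0.64 ± 0.18 with an adjusted p of 0.188. Between 1 and 3 months 0 of 10 were called in F/M (0.153% of all genes) and 0 of 10 in Cb (0.458%). The comparisons of 1 with 3 and of 2 with 3 months share the libraries of 3 months.

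Activation markers were called higher in the same libraries. Of 25 genes that mark activated microglia in neurodegeneration, 3 reached the level set by the filter in fewer than 3 of the 6 control libraries of 3 months. These, Cst7, Itgax and Clec7a, passed the filter through the Tpp1-/- libraries and so had to differ, and they are given by their reads, with no fold. Of the other 22, 11 were called higher in Cb, beside 0.673% of all genes, and 8 in F/M, beside 0.412%, with medians of 0.73 and 0.48. None of the 25 was called lower in these comparisons. Cst7, an inhibitor of cathepsins, had 1 to 4 reads per library in Cb controls and 74 to 125 in Cb Tpp1-/- libraries, and 0 to 4 and 63 to 71 reads in F/M. Itgax, the integrin CD11c, had 4 reads in each Cb control and 87 to 121 in Cb Tpp1-/- libraries, and 2 to 9 and 82 to 123 reads in F/M. Clec7a, the receptor Dectin-1, had 7 to 15 reads in Cb controls and 167 to 242 in Cb Tpp1-/- libraries, and 5 to 11 and 91 to 126 reads in F/M. Cd52 had 7 to 10 reads in Cb controls and 70 to 135 in Cb Tpp1-/- libraries, and 12 to 14 and 58 to 75 reads in F/M. Its log2 fold change in Cb was 3.35 ± 0.27. Ccl6 was higher by 2.65 ± 0.23 in Cb, with 12 to 16 reads in controls. Lpl, the lipoprotein lipase, was higher by 2.16 ± 0.19 in Cb and was at 0.22 ± 0.15 in F/M, not called. At 1 month 0 activation genes were called in either region, beside 0.0112% of all genes in each, and Itgax and Clec7a again passed the filter through the Tpp1-/- libraries. Of the other 22 tested, 21 were positive in Cb, with a median of 0.24 and 7 unadjusted p-values under 0.05 (7.66% of all genes), and 19 in F/M, with a median of 0.12 and 4 such p-values (1.89% of all genes). In the same Cb libraries of 1 month, 12 of 12 choroid plexus markers were positive, with a median of 0.68, and summed to 276 to 969 CPM in controls and 928 to 1370 CPM in Tpp1-/- libraries. Their part in the values of the activation genes was not tested. At 2 months 0 were called higher, and Timp2, an inhibitor of metalloproteinases named after its values were seen, was called lower in Cb at -0.65 ± 0.08, beside 1.8% of all genes.

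Among the core myeloid genes, in Cb at 3 months all 12 were positive and 8 were called, beside 0.673% of all genes called higher, with a median of 0.86, led by Aif1, the marker Iba1, at 1.32 ± 0.26 and Ptprc, the pan-leukocyte phosphatase CD45, at 1.21 ± 0.20. Laptm5 and Cd53 followed at 0.98 ± 0.10 and 0.97 ± 0.19. In F/M all 12 were again positive, with a median of 0.36, and 1, Ptprc, was called at 1.00 ± 0.19, beside 0.412% of all genes. Summed over the list, the core genes went from 36.6 to 41.2 CPM in Cb controls to 68.6 to 76.7 CPM in Tpp1-/- libraries, and the 10 homeostatic genes from 99.4 to 117 CPM to 137 to 153 CPM. In F/M the core genes had 99.2 to 107 CPM and 129 to 141 CPM, and the homeostatic genes 320 to 332 CPM and 333 to 362 CPM. The summed activation genes overlapped between genotypes, at 3070 to 3710 CPM in controls and 3150 to 5230 CPM in Tpp1-/- libraries of Cb and at 3570 to 4020 CPM and 3740 to 3920 CPM in F/M. Cst7, Itgax, Clec7a, Cd52 and Ccl6 each had at most 9.65 CPM in any of these libraries, so the sum follows more abundant genes of the list.

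Not every gene known as a homeostatic marker lacked a call. Of 18 further genes of that kind, 4 were called higher in Cb at 3 months, beside 0.673% of all genes, and 2 in F/M, beside 0.412%. Fcrls, an Fc receptor-like protein, was higher by 1.93 ± 0.14 in Cb and 0.74 ± 0.13 in F/M, and Csf3r, the receptor of G-CSF, by 1.18 ± 0.21 and 1.26 ± 0.19. Cd33, an inhibitory lectin, was higher by 0.88 ± 0.15 in Cb. The medians of the 18 were 0.30 in Cb and 0.06 in F/M, close to the 0.32 and 0.03 of the 10 genes. Of 6 transcription factors of microglia, Irf8 was called in Cb, at 1.61 ± 0.19.

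**Figure D3:**
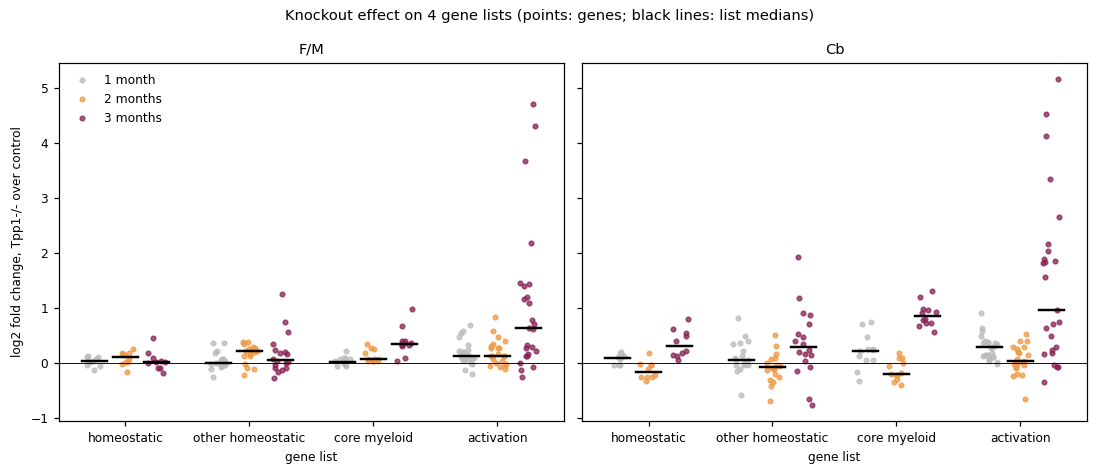
Log2 fold change of Tpp1-/- over control (y axis) for the genes of 4 lists in F/M and Cb, coloured by age, with a black line at each list's median. At 3 months the medians in Cb are 0.32 for the homeostatic, 0.30 for the other homeostatic, 0.86 for the core myeloid and 0.98 for the activation genes, or 0.73 for the activation genes without the 3 that were near 0 in controls.

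Ligands and signalling partners of the homeostatic genes did not pass the test at 3 months. Of 16 such genes 14 were tested and 0 were called in Cb, beside 0.859% of all genes, or in F/M, beside 0.464%. The medians were 0.08 in Cb and 0.04 in F/M, and an unadjusted p under 0.05 went to 3 of them in Cb, beside 6.49% of all genes, and to 1 in F/M, beside 5.94%. Cx3cl1, the ligand of Cx3cr1, was at -0.03 ± 0.10 in Cb and -0.08 ± 0.10 in F/M. Itgb8, an integrin subunit that activates latent TGF-beta, was at 0.07 ± 0.16 and -0.07 ± 0.16. At 2 months Il34, a ligand of Csf1r, was the 1 partner called in Cb, with a log2 fold change of -0.62 ± 0.11 beside 1.8% of all genes called lower, and it is named after its values were seen.

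Several of the 10 genes are also made by cells other than microglia, among them Csf1r, Cx3cr1 and Selplg. Of 11 markers of perivascular, meningeal and choroid plexus macrophages 10 were tested at 3 months and 0 were called in Cb, beside 0.859% of all genes, or in F/M, beside 0.464%. Ms4a7 passed the filter through the Tpp1-/- libraries and so had to differ. Without it, all of the other 9 were positive in Cb, with a median of 0.49 in place of 0.58. Of these 9, 3 had an unadjusted p under 0.05 in edgeR's test, beside 6.49% of all genes. The list of 11 summed to 18.4 to 24.6 CPM in Cb controls and 24.9 to 27.9 CPM in Cb Tpp1-/- libraries, which did not overlap, and no marker was at 0 in either group. Mrc1, the mannose receptor, was at 0.48 ± 0.14 and Stab1 at 0.25 ± 0.20. Of 11 markers of blood leukocytes 3 passed the filter at 3 months. In edgeR's test 0 were called and 0 had an unadjusted p under 0.05 in either region, with S100a9 at 0.50 ± 0.50 in Cb. The list summed to 5.2 to 5.74 CPM in Cb controls and 2.41 to 15.5 CPM in Cb Tpp1-/- libraries. At 2 months 3 of these markers had been called lower in Cb, beside 1.8% of all genes. Of 12 cell cycle genes 9 were tested at 3 months and 0 were called in either region, with 1 unadjusted p under 0.05 in each, where 6.49% of all genes had one in Cb and 5.94% in F/M. Cdk1 and Birc5, like Ms4a7 named after their values were seen, reached the filter's level in fewer than 3 of the 6 controls, and the other 7 had medians of 0.15 in Cb, with Tpx2 at 0.15 ± 0.17, and 0.08 in F/M, with Tpx2 at -0.06 ± 0.17. The list of 12 summed to 10.9 to 12.6 CPM in Cb controls and 11.7 to 14.4 CPM in Cb Tpp1-/- libraries. In F/M it summed to 18.5 to 20.5 CPM and 22.3 to 24.2 CPM, which did not overlap. Tissue markers moved in part as well. In Cb the forebrain markers summed to 12.8 to 20.7 CPM in controls and 7.75 to 10.9 CPM in Tpp1-/- libraries of 3 months, and in F/M the midbrain and thalamus markers summed to 484 to 496 CPM in controls and 352 to 409 CPM in Tpp1-/- libraries. Cerebellar markers in F/M summed to 82.5 to 90.8 CPM in controls and 64.7 to 78.9 CPM in Tpp1-/- libraries. The sums were 83.0 to 96.6 and 68.4 to 78.2 CPM at 1 month, and 62.0 to 76.3 and 79.4 to 89.1 CPM at 2 months. The part of these lists in the values of the 10 genes was not tested.

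Scaling by the core myeloid genes asks how far the homeostatic genes kept up with genes that all myeloid cells share. The result is a ratio only, since no gene is known to be constant per cell. Whether the core genes themselves changed per cell was not tested. It sets the mean log level of the 12 core genes equal in all libraries, and it moved the median of all genes to -0.89 in Cb and to -0.39 in F/M at 3 months. In Cb all 10 homeostatic genes were then negative and 5 were called lower, but so were 89.0% of all genes. The 5 were Sall1 at -0.81 ± 0.13, Siglech at -0.73 ± 0.13, P2ry12 at -0.72 ± 0.16, Tmem119 at -0.71 ± 0.13 and P2ry13 at -0.67 ± 0.16. Selplg, Csf1r, Cx3cr1, Olfml3 and Gpr34 were at -0.49 ± 0.14, -0.39 ± 0.11, -0.32 ± 0.12, -0.27 ± 0.14 and -0.07 ± 0.19. The median of the 10, -0.58, lay between that of all genes and 0.

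In F/M 0 of 10 were called lower on that scale, beside 9.18% of all genes. There 9 of 10 were negative with a median of -0.36, near the -0.39 of all genes, and P2ry12 was the lowest at -0.57 ± 0.15 with an adjusted p of 0.0154, short of the fold minimum. On this scale 0 of 10 were called at 1 month in F/M (0.0112% of all genes) or Cb (0.0112%), and 0 of 10 at 2 months, where F/M had 0.569% and Cb 2.0%. The number called depends on the reference chosen. The error of the reference itself is shared by all genes and is not part of these standard errors.

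**Figure D4:**
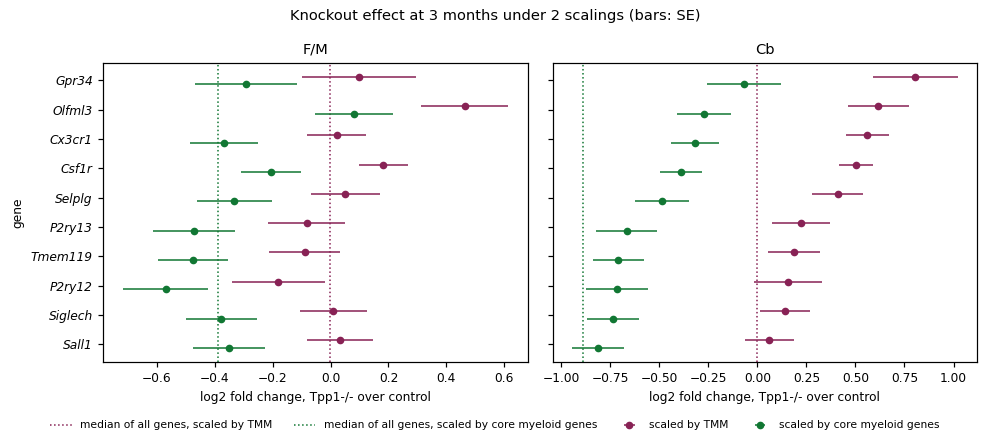
Log2 fold change of Tpp1-/- over control at 3 months (x axis) for each homeostatic gene, scaled by TMM (purple) or by 12 core myeloid genes (green), with SE bars and dotted lines at the median of all genes tested. In Cb all green points lie between the green line at -0.89 and 0.

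Within groups the 10 genes did not vary as 1 block. Deviations from the group means were compared over 36 libraries, which share depth and composition between genes, so the correlations are descriptive. P2ry12, P2ry13, Gpr34, Siglech, Cx3cr1 and Sall1 formed one set, with r of 0.82 between P2ry12 and Gpr34, 0.80 between Siglech and Gpr34 and 0.72 between P2ry12 and P2ry13. Tmem119, Selplg, Csf1r and Olfml3 formed the other, with r between 0.40 and 0.53. Between the sets r ran from -0.60 for Tmem119 and Sall1 to 0.30 for Cx3cr1 and Olfml3. Among the libraries of 1 month, those with replicate number 1 were high for P2ry13, at 15.2 and 15.0 CPM in F/M against 8.95 to 10.3 CPM in the other F/M libraries of that age.

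The GC content of the longest GENCODE M21 transcript was 37.1% for Gpr34, 38.6% for P2ry12, 44.7% for P2ry13, 45.5% for Siglech, 50.3% for Cx3cr1 and 51.6% for Sall1 in the first set. In the other set it was 49.8% for Selplg, 52.4% for Olfml3, 54.5% for Csf1r and 59.1% for Tmem119. The sets overlapped in GC content, around a median of 49.2% for all 18322 genes. In each library, the slope of the log2 deviation on GC content over 12122 genes ran from -0.15 to 0.24 per 10 percentage points. The highest slope belonged to Cb control replicate 3 of 3 months, the library that was low for Gpr34, P2ry12, Siglech and Sall1. Its deviation from its group was -0.72 for Gpr34, -0.57 for P2ry12 and 0.07 for Csf1r. The part of GC content in the genotype differences was measured by a fit with a GC offset per library, chosen after the data were seen. In it the log2 fold changes in Cb at 3 months were 0.79 for Gpr34, 0.51 for Csf1r, 0.56 for Cx3cr1, 0.62 for Olfml3 and 0.13 for P2ry12, and Gpr34 reached an adjusted p of 0.0848, which made it the 1 called gene of the 10.

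**Figure D5:**
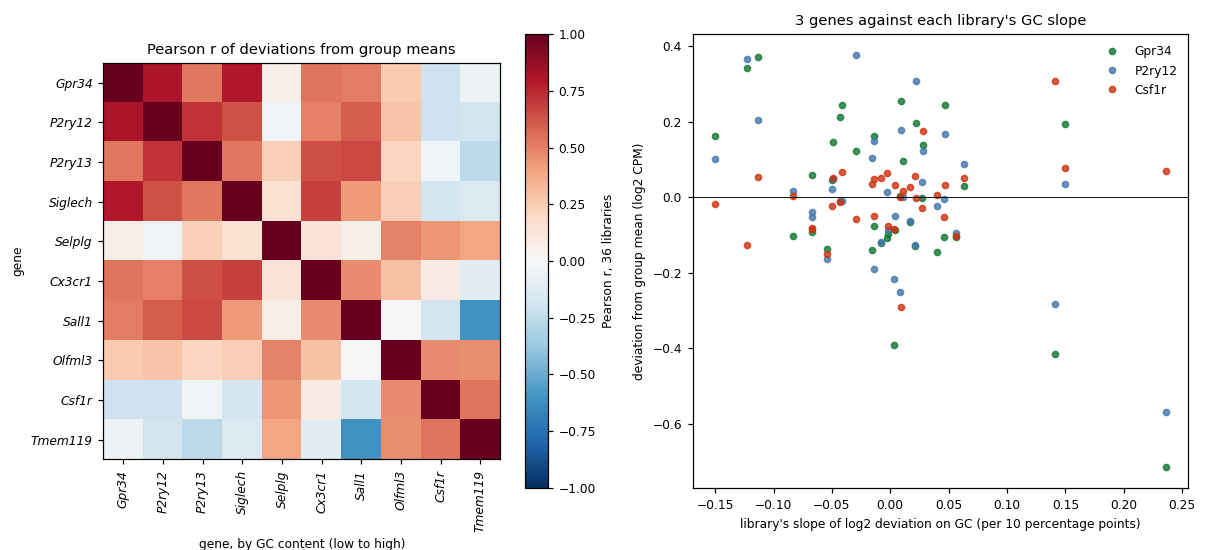
Left, Pearson r between homeostatic genes for deviations from group means over 36 libraries, with genes ordered by transcript GC content. Right, deviation of Gpr34, P2ry12 and Csf1r (y axis, log2 CPM) against each library's slope on GC content (x axis), where the point at 0.24 is Cb control replicate 3 of 3 months.

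Among the genes whose pattern was most like the mean of the 10, over 36 libraries centred within age and region, were Aif1 (Pearson r of 0.813), Lpl (0.778), Cd53 (0.772) and Ly86 (0.770). Genes on the opposite strand overlap several of the 10. P2ry12 and P2ry13 lie within Med12l and Gpr34 within Cask, and exons of P2ry12, Cx3cr1 and Csf1r overlap those of Med12l, Gm33858 and Hmgxb3. The counts were made by strand, so that such reads are assigned to 1 of the genes.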

How the data were processed

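The authors sequenced poly(A) RNA as stranded libraries and deposited 1 file of gene counts per library. Per the file headers, counts were made with featureCounts on GRCm38, in version 1.6.3 with GENCODE M21 at 1 month, 1.6.2 with M16 at 2 months and 1.6.2 with M18 at 3 months, with strand setting 1, 2 and 1. The headers name fractional counting of multi-mapping reads, yet the deposited counts are whole. The submitters' processing notes list STAR 2.5.2b for alignment among other tools.

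Genes were filtered with filterByExpr, leaving 17916, 17229 and 17224 at the 3 ages. The main test was edgeR's quasi-likelihood test (edgeR 4.0.16, R 4.3.3) with TMM normalization, 1 fit of 12 libraries per age, and 1 of 36 libraries for changes of the effect with age. Genes were called at an adjusted p under 0.1 (Benjamini-Hochberg over all genes tested) and a fold of at least 1.5, the region-by-genotype difference at the adjusted p alone. On simulated data with 200 changed genes in Cb at 3 months, run on 16871 genes, 197 were recovered, with 14 false calls. That check applies only to changes of the size simulated. Whether changes of the size seen in the homeostatic genes would be recovered was not tested. Alternatives were DESeq2 1.42.0, limma-voom 3.58.1, other scalings and filters, a replicate block, libraries left out and, added after the data were seen, a GC correction with 20 bins.

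The 10 genes and all gene lists were chosen with earlier results of these data known. All 10 are described in every comparison. Of each other list the text names up to 4 called genes with the largest change in Cb at 3 months (6 for activation genes), or up to 2 of the highest level where none was called, and it names genes most like the 10. One gene that these rules would name is not reported here. Replicate numbers were compared over all genes: deviations of same-numbered control and Tpp1-/- libraries correlated at -0.085 to 0.229, so the numbers were not taken as pairs. Those of same-numbered F/M and Cb libraries correlated at -0.04 to 0.198. The labels do not say whether these come from 1 mouse, and the tests between regions treated them as independent.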

Additional observations from a re-analysis of the deposited data

Results flagged for a closer look

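For Csf1r, Olfml3 and Selplg the difference between Tpp1-/- and control differed between 2 and 3 months in Cb. The effect at 3 months minus that at 2 months was 0.60 on the log2 scale for Csf1r, 0.83 for Olfml3 and 0.73 for Selplg, each past the threshold in a test of the difference itself over 36 libraries (edgeR's quasi-likelihood test). All 10 homeostatic genes were higher in value in that comparison. Called higher in it were 7 of 12 core myeloid genes, with a median of 1.05, beside 1.3% of all genes. So were 4 of 12 markers of midbrain and thalamus, with a median of 0.55, and 1 of 14 tested signalling partners. The 4 tested blood leukocyte markers were all positive, with a median of 1.91. The 10 tested markers of perivascular, meningeal and choroid plexus macrophages had a median of 0.75. The 12 markers of choroid plexus epithelium were all negative, with a median of -0.67. In each of these last lists 0 were called. The sex read from the counts, the annotation and the strand setting of the counting differ between these ages. Tpp1 in Cb controls differs too, at 110 to 111 CPM at 2 months and 50.8 to 56.05 CPM at 3 months. The part of these in the differences cannot be told apart from age.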

How the results depend on the processing

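No value of the 10 genes that was called reversed its direction under any alternative run. In Cb at 3 months, where 0 of 10 were called higher, DESeq2 called 2 (beside 0.801% of all genes called higher), no filter on low counts called 2 (0.55%), an adjusted p under 0.05 with no fold minimum called 2 (0.598%) and the GC correction, chosen after the data were seen, called 1 (0.737%). Leaving out 1 library called 0 to 1 (0.478% to 0.786%). The replicate block also called 2, Gpr34 and Olfml3 (0.691%), and changed no other count of calls, though the numbers do not pair the libraries. With same-numbered F/M and Cb libraries taken as 1 animal, the counts for the region difference and for the region-by-genotype difference were the same at each age. For the change from 2 to 3 months in F/M, DESeq2 and no filter each called 1 in place of 0, beside 0.251% and 0.195% of all genes called higher. Relative to core myeloid genes at 3 months, another reference list of microglial genes called 10 lower in Cb in place of 5, beside 97.1% of all genes in place of 89.0%, and 8 in F/M in place of 0, beside 69.0% in place of 9.18%. In F/M the reference without Itgam and that without Spi1 each called 1 (11.9% and 11.5% of all genes called lower), and leaving out 1 library called 0 to 1 (5.66% to 10.3%). In Cb leaving out 1 library called 4 to 6 (82.5% to 86.6%). The cause of these changes was not tested. With 3 libraries per group an exact permutation test cannot go below a p of 0.1, so single genes rest on the fits across all genes, and P2ry13 rests on as few as 50 reads in a library.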
